A study of Mus musculus with 18 samples.

Results

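CTCF sites that lie in H3K4me3-marked chromatin of mouse liver were examined here in mice with and without a hepatocyte deletion of Ctcf. The sites were chosen by their measured peak calls. A site was a region of the merged CTCF peaks (1 bp overlap, chromosomes 1 to 19 and X) that both WT CTCF libraries called and that overlapped a peak of the WT H3K4me3 library. There were 2123 such promoter sites, out of 22043 sites called in both WT libraries and 30021 CTCF regions in all. KO mice were CTCF fl/fl Albcre+ and WT mice were CTCF fl/fl Albcre-, so that both groups carried the floxed alleles, and all were C57BL/6 at 8 weeks. Each of the 18 libraries was deposited as a peak list. CTCF had 2 KO and 2 WT libraries (KO160 and KO163, WT164 and WT165), and PPARg also had 2 and 2 (KO 7 and KO 8, WT 2 and WT 4). H3K27ac had 3 and 3 (KO 2, KO 3 and KO 4, WT 1, WT 2 and WT 4), H3K4me3 had 1 and 1 (KO 4, WT 2), and H3K27me3 had 1 and 1 (KO150, WT156). The CTCF and PPARg libraries other than PPARg WT 4 came from fasted males and were made by tagmentation. PPARg WT 4 and the histone libraries were made with an adapter ligation kit, and their growth text speaks of neural stem cells although the tissue is given as liver. Alb-Cre is driven by the albumin promoter and acts in hepatocytes, so other liver cells keep CTCF. In whole liver, fewer bound cells and less binding per cell cannot be told apart.

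CTCF is a zinc-finger protein that halts cohesin and so anchors chromatin loops and insulator boundaries. Many of its sites lie far from genes, but a share sits just upstream of transcription start sites, where it can hold nucleosomes in place and bring promoters into contact with distant elements. H3K4me3 marks active and poised promoters, H3K27ac marks active promoters and enhancers, H3K27me3 marks Polycomb repression, and PPARg is a lipid-sensing nuclear receptor best known from fat cells.

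The label was checked against annotated starts and tissue markers. Of the 2066 promoter sites on chromosomes with listed starts, 1353 (65.5%) lay within 1 kb of a listed start, and 1268 (61.4%) within 1 kb of a protein-coding start. The same share was 8.64% of 1435 sites without H3K4me3 but with H3K27ac in all 3 WT libraries, and 4.66% of 16637 sites with neither mark in WT. The remaining members are H3K4me3-marked CTCF sites without a listed start nearby, and are called promoter sites here by the rule alone. Marker genes were read within 1 kb of a listed start, or of either gene end where no start was listed. Of 8 hepatocyte markers, 7 held an H3K4me3 peak there in KO and 8 in WT. None of the 8 neural stem cell markers (Sox2, Nes, Pax6 and others) did in KO or WT. The counts in KO and WT were 1 and 0 of 6 for Kupffer cells, 5 and 3 of 6 for endothelium, 3 and 2 of 6 for stellate cells, 3 and 2 of 6 for cholangiocytes, and 0 and 0 of 6 for lymphocytes. In H3K27ac, stellate markers with a peak numbered 5, 4 and 5 of 6 in KO 2, KO 3 and KO 4, against 3, 2 and 2 in WT 1, WT 2 and WT 4, and 1 of the 8 neural markers had one in KO 3, KO 4 and WT 4. Hepatocyte markers had one at 8 of 8 in all 6 libraries, and Kupffer markers at 3, 3 and 5 in KO and 1, 4 and 3 in WT. The part of these other cells in any value below was not tested. The peak lists carry no measure of Ctcf transcript or protein.

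Sequences under some of these sites are shown first, searched for the element by which CTCF is known to bind DNA. The core of the known CTCF motif, spelled as CC, any 3 bases, AG, any 2 bases and GGC, was searched on both strands in RefSeq promoter windows of 300 bp (250 before to 50 after a start, GRCm38.p6). The centre of 612 promoter sites fell in such a window, and 299 of these (48.9%, 95% Wilson interval 44.9 to 52.8) held a match. Windows with H3K4me3 but no CTCF region held a match in 10.7% of 10296 cases (10.1 to 11.3), and all 32619 windows in 8.67%. Base composition was close, with a median GC content of 62.3% and 23 CpG at the promoter sites, and 62% and 22 CpG in the H3K4me3 windows without CTCF. A narrower spelling with a fixed G after AG (CC, any 3 bases, AGG, any base and GGC), all of whose matches are also matches of the first, was in 32.5% of the 612 and in 3.89% of the 10296. The stretches below read 5′ to 3′ on the strand of the gene and end before its start. Capitals mark the match, or its reverse complement where the match is on the other strand. They were picked to show windows with and without a match. The first 4 belong to sites among the 8 with the best WT rank, the next 3 to a ribosomal gene and to a pair of hepatocyte factor genes, and the last 2 to sites where CTCF fell in KO.
Nipsnap2, chr5:129724924-129725013, plus strand: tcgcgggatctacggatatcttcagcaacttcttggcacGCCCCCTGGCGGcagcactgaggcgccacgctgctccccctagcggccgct
Rapgef1, chr2:29619600-29619689, plus strand: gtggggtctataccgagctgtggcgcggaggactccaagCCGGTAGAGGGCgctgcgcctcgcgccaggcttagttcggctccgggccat
Med4, chr14:73509858-73509947, plus strand: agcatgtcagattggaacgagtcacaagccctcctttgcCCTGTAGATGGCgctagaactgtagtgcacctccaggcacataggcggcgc
Sh3glb1, chr3:144720508-144720585, minus strand: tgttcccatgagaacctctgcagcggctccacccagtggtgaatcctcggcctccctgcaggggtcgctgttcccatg
Rplp0, chr5:115559251-115559340, plus strand: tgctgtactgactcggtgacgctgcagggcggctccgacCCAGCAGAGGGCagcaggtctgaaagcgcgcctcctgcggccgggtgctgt
Cebpb, chr2:167688665-167688719, plus strand: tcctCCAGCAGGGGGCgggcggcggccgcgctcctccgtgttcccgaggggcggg
Cebpa, chr7:35119152-35119241, plus strand: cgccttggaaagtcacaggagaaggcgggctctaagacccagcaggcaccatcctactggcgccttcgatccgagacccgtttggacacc
C1s1, chr6:124542493-124542582, minus strand: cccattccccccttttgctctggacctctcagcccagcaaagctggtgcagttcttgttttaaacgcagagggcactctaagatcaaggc
Camk1d, chr2:5714779-5714868, minus strand: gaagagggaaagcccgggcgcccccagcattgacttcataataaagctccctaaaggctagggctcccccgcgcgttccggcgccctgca

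The matches sat near the middle of the peaks. In the windows with a match, the nearest match lay a median of 26 bp from the centre of the CTCF region, and 228 of 299 (76.3%) lay within 50 bp. At the Nipsnap2 site the match began at position -112 relative to the start and lay 32 bp from the centre, on the strand opposite to the gene. At the open positions of the motif, G followed the AG core in 62.7% of 241 matches and A in 30.7%, and the next base was G in 66.4%. In the 270 windows with a single match, 184 (68.1%, 62.4 to 73.4) read on the strand of the gene, against 53.3% (50.2 to 56.3) of 1019 single matches in the H3K4me3 windows without CTCF. Single windows were read only at the best-ranked sites, the lost sites, the widest CTCF falls and the named members of the CTCF and cohesin, hepatocyte factor and ribosomal lists. Of the 13 such sites with a window and a long enough stretch before the start, 5 held a match and 8 did not. Other sites named in this report were not read singly. Of the 8 best-ranked sites, 5 had such a window, and those of Sh3glb1 and Alg5 held no match. A match was also absent from the windows of Cebpa, Rpl26 and Prrc2c, and from Camk1d, Zfp639 and C1s1, where CTCF fell. This says only that these letters are not there, and strong and fallen sites alike included windows without one.

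The motif was also counted by WT strength and by the calls in KO. Sites above a WT strength percentile of 50 had a match in 52.7% of 427 windows (47.9 to 57.4), and those below it in 40.0% of 185 (33.2 to 47.2). Sites called in all 4 libraries had one in 51.5% of 493 windows, and sites called in neither KO in 15 of 41 (36.6%, 23.6 to 51.9), an interval that includes the 51.5%. Median GC content was 66.3% in the windows of sites called in neither KO and 62% in those called in all 4. Windows are not replicates of a genotype, and these shares describe the sites.

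The promoter sites crowded just upstream of starts. Of the 1219 sites with their centre within 1 kb of a start, 817 (67.0%) lay upstream, and the median position was 86 bp before the start. The 100 bp before the start held 272 centres and the 100 bp before those held 206, against 83 in the first 100 bp downstream. Starts on both strands lay within 1 kb of 237 sites (11.5%). Among sites called in neither KO, 51.1% of 133 lay upstream, against 71.0% of 910 sites called in all 4 libraries.

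**Figure D1:**
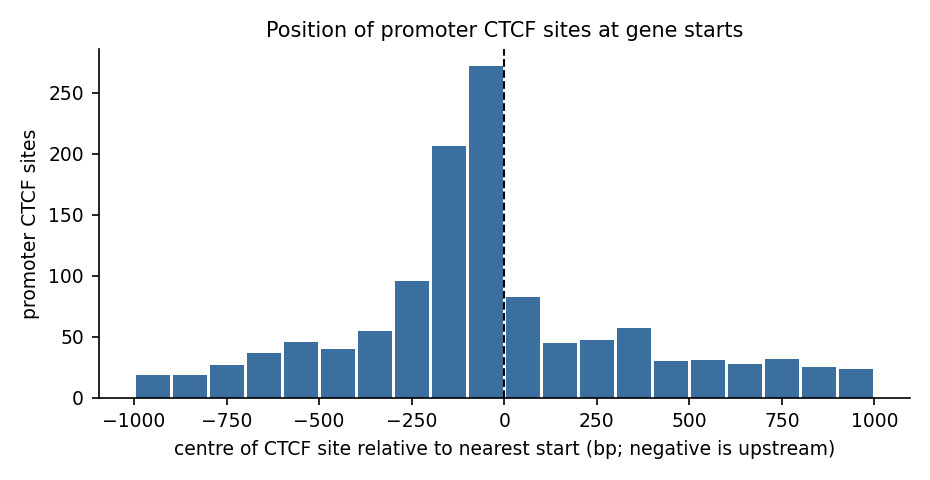
Number of promoter CTCF sites (vertical axis) in bins of 100 bp by the position of the centre of the site relative to the nearest listed start (horizontal axis, bp). The tallest bar, 272 sites, is the bin just upstream of the start.

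CTCF fold at the promoter sites spanned much the same range as at other CTCF sites. Fold enrichment over background, the authors' value for each peak, had a median of 9.11 in KO160 and 9.42 in KO163, over the 1767 and 1785 sites called there, and of 11.1 in WT164 and 10.1 in WT165 over all 2123. The other 19920 sites called in both WT libraries had medians of 8.59 and 8.86 in the KO libraries and 10.5 and 9.44 in the WT libraries. The merged promoter regions were shorter, with a median of 730 bp against 881 bp. At the 3 members nearest the limit of calling, the lower WT value was a −log10 q of 3.007. They lie at Desi2 and, as a pair of sites, at Marchf5, and each had a fold of 4.23 in WT164. Just outside, with H3K4me3 and the highest −log10 q in the only WT library that called them, were regions nearest Ifna13 (94.0 in WT164), Bace2 (20.2 in WT165) and Tmppe (18.99 in WT164).

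The 8 sites with the best WT rank kept a peak in both KO lists. Nipsnap2, a mitochondrial protein gene, had fold enrichments of 55.1 and 52.1 in KO160 and KO163, against 52.5 and 56.4 in WT164 and WT165 (chromosome 5, 129724284 to 129725483). The KO and WT values overlapped there, and the log2 difference was -0.02 ± 0.21 (SE). Kdm3b, a histone H3K9 demethylase gene, had 32.1 and 35.5 in KO and 50.9 and 44.7 in WT (chromosome 18, 34776127 to 34777628). Rapgef1, an exchange factor for Rap GTPases, had 32.8 and 28.0 in KO and 41.2 and 43.5 in WT. At the shared start region of Exosc8 and Alg5, an RNA exosome subunit and a glucosyltransferase gene, values were 25.5 and 27.7 in KO and 44.4 and 35.2 in WT. These 3 sites were lower in both KO libraries, but none passed the test (adjusted p = 0.172, 0.193 and 0.130, limma with Benjamini-Hochberg adjustment). Sh3glb1, a membrane-curvature protein gene, Rfx7, a transcription factor gene, and Med4, a Mediator subunit gene, ranged from 18.6 to 29.4 in KO and from 27.3 to 37.3 in WT. Gdf15, which encodes a stress-induced cytokine, had 29.8 and 30.2 in KO and 33.8 and 33.0 in WT. At Sh3glb1, Rfx7, Med4 and Gdf15, too, both KO values lay below both WT values, as at 50.1% of all regions called in all 4 libraries. None of them passed the test (limma adjusted p from 0.297 to 0.72).

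Loss of the CTCF call in KO touched the weak sites. KO160 called 1767 of the promoter sites (83.2%) and KO163 called 1785 (84.1%). Both called 1637 (77.1%, 75.3 to 78.8), KO160 alone called 130, KO163 alone 148, and neither called 208 (9.80%, 8.61 to 11.1). The background over all 22043 sites was 13.4%, and it was 13.8% (13.4 to 14.3) at the other 19920. The WT calls chose the sites and the KO lists are shorter (18597 and 20323 peaks, against 27580 and 24565 in WT), so the share is a description and not a test of loss. With all 4 lists cut to their 18597 best peaks, 41 of 1612 promoter sites (2.54%, 1.88 to 3.43) and 4.15% (3.83 to 4.48) of the others were called in neither KO. With 2 libraries a genotype, the exact permutation p has a floor of 0.333.

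The share without a KO peak fell steeply with WT strength, the mean percentile of −log10 q in the WT lists. In the weakest decile of all sites it was 49.5% of 190 promoter sites (42.4 to 56.5), against 61.7% of 2015 other sites (59.5 to 63.8). It was 32.2% and 38.6% in the next decile, 18.3% and 22.5% in the third, and 6.88% and 9.28% in the fourth. None of the 220 to 278 promoter sites in each of the 5 strongest deciles lacked both KO calls, which allows up to 1.72% of the 220. Other sites with the same spread of strength over the deciles as the promoter sites would have lost 12.4%, so the promoter sites were 2.58 percentage points below them. This gap rests on peak calls and has no test over libraries.

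**Figure D2:**
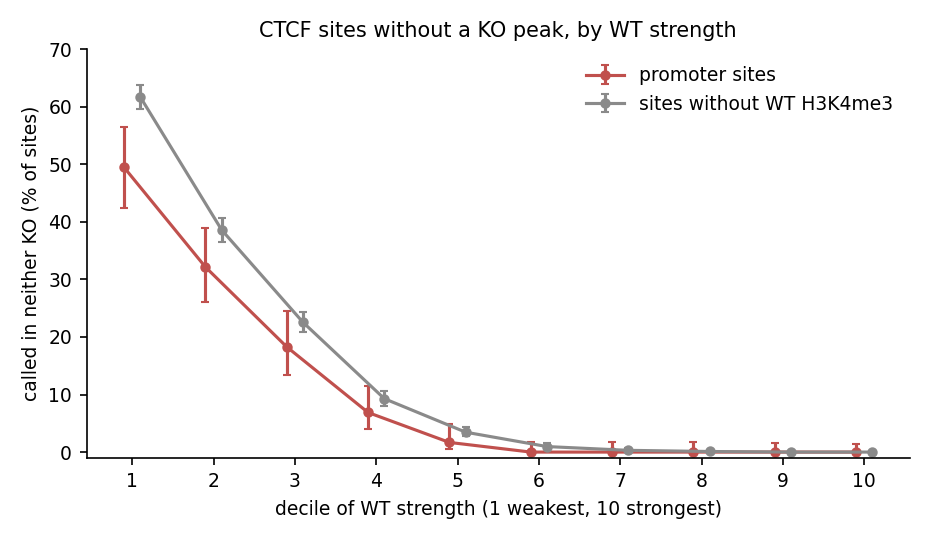
Share of CTCF sites called in neither KO library (vertical axis, %) by decile of WT strength (horizontal axis) for promoter sites (red) and for sites called in both WT libraries without WT H3K4me3 (grey). Points are shares with 95% Wilson intervals. Both curves fall to near 0 by the sixth decile, and the promoter curve starts at 49.5% against 61.7%.

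Lost sites with the best WT rank lay at genes of varied function. Foxa1, which encodes a pioneer factor of the liver, had a site inside the gene with 9.74 in WT164 and 10.6 in WT165 and no peak in either KO list (chromosome 12, 57542023 to 57542886). The other Foxa1 site, within 1 kb of the start of the gene, had 8.52 and 7.35 in KO and 8.00 and 8.80 in WT. The KO and WT ranges there overlapped. Prrc2c, an RNA-binding protein gene, had 10.8 and 8.38 in WT164 and WT165, and its window holds no match to the motif. Jun, the AP-1 subunit gene, had 8.43 and 5.52, Dnm3, a dynamin gene, had 8.12 and 10.1, and Mfsd8, a lysosomal transporter gene, had 7.70 and 10.1. The kinase gene Mapkapk5, the cathepsin gene Ctsh and the nucleotide hydrolase gene Dctpp1 completed the 8, with WT folds of 8.12 to 9.33. Over all 208 lost sites the median fold was 5.92 in WT164 and 5.90 in WT165, against 12.7 and 11.6 for the sites called in all 4 libraries.

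CTCF fold was on the whole lower in KO at promoter sites that kept a peak, as deposited and without scaling between libraries. Over the 1637 sites called in all 4 libraries the median fold was 9.62 in KO160 and 9.97 in KO163, against 12.7 in WT164 and 11.6 in WT165. All 15934 regions called in all 4 libraries were fitted together with limma, and all of them meet the CTCF part of the rule. The median log2 difference of KO minus WT was -0.30 at the promoter sites, with a middle 80% from -0.74 to 0.11, and -0.32 over all regions. Both KO values lay below both WT values at 794 promoter sites (48.5%, background 50.1%) and above them at 60 (3.67%, background 3.4%). At an adjusted p under 0.05, 32 promoter sites fell (background 2.06%), which is 1.95% of those tested, and none rose (background 0%). An unadjusted p under 0.05, in either direction, was reached at 308 of the 1637 promoter sites and at 3322 of all 15934 regions. The share was thus no higher at the promoter sites. With each library centred on its median the median difference was 0.05 at the promoter sites and 0.03 over all regions, which centring sets near 0 by construction. The summits of a site lay a median of 40 to 43 bp apart between a KO and a WT library, 45 bp between the KO libraries and 38 bp between the WT libraries.

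**Figure D3:**
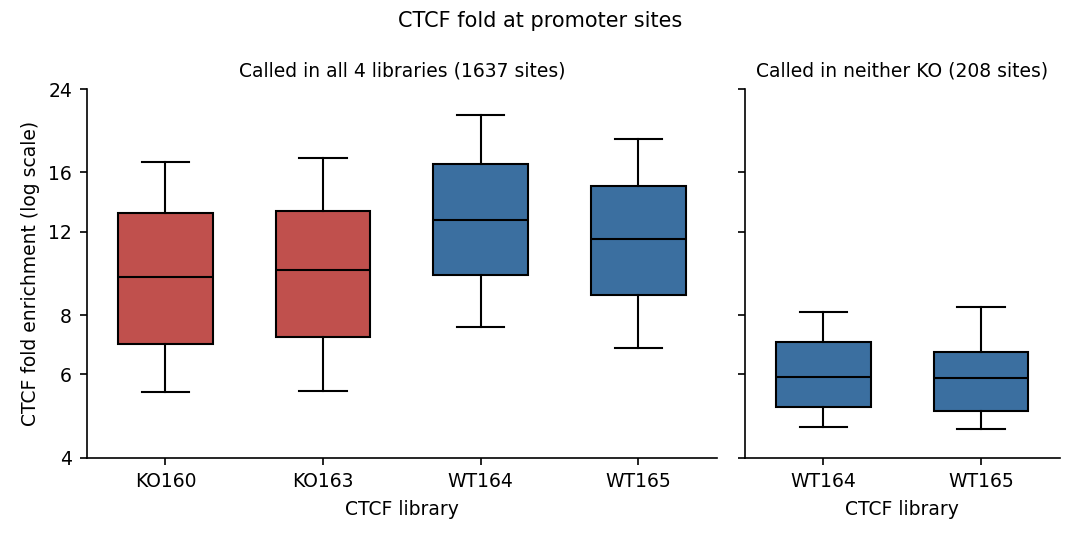
CTCF fold enrichment (vertical axis, log scale) by library at the 1637 promoter sites called in all 4 libraries (left) and the 208 called in neither KO (right). Boxes show the quartiles with the median and whiskers the 10th and 90th percentiles over sites, and medians on the left were 9.62 and 9.97 in KO (red) and 12.7 and 11.6 in WT (blue).

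The widest falls went with KO folds of 4.07 to 8.19. Camk1d, a calcium-dependent kinase gene, had 5.10 in KO160 and 4.59 in KO163, against 12.4 in WT164 and 14.0 in WT165 (chromosome 2, 5714635 to 5715150). Its log2 difference was -1.45 ± 0.33 (SE), with an adjusted p of 0.00985. Zfp639, a zinc-finger gene, had 4.07 and 4.67 in KO and 11.5 and 11.3 in WT, a difference of -1.39 ± 0.32 with an adjusted p of 0.00985. Map3k5, the stress kinase ASK1, had 4.59 and 4.99 in KO and 13.5 and 10.6 in WT (-1.33 ± 0.32, adjusted p = 0.0151). C1s1, which encodes a serine protease of the complement pathway, had 4.80 and 8.19 in KO and 13.8 and 17.4 in WT (-1.31 ± 0.32, adjusted p = 0.0151). Arhgap23, a gene of the GTPase-activating protein family that holds its site inside the gene body, had 4.40 and 5.45 in KO and 13.7 and 10.8 in WT. These 5 sites were chosen for the lack of overlap between KO and WT. The other 27 sites past the test had log2 differences of -1.27 to -0.94 and included Dnmt3a, a DNA methyltransferase gene (9.38 and 7.34 in KO, 18.6 and 17.8 in WT). They also included Tgfb1, a fibrogenic cytokine gene (6.17 and 5.45 in KO, 15.1 and 10.6 in WT), App, the amyloid precursor gene (10.1 and 7.81 in KO, 16.7 and 19.4 in WT), and Dusp1, a MAP kinase phosphatase gene (8.81 and 11.3 in KO, 19.7 and 18.6 in WT). Dnmt3a, Tgfb1, App and Dusp1 were picked after their values were seen. The count of 32 depended on scaling, on the q limit and on single libraries. It was 0 when each library was centred on its median and 0 at a −log10 q of at least 10, and it was 0, 17, 2 and 21 without KO160, KO163, WT164 and WT165 in turn.

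A few sites had higher CTCF folds in both KO libraries. Ythdf2, an RNA methylation reader gene, had 11.4 and 10.1 in KO and 6.50 and 6.99 in WT, a log2 difference of 0.67 ± 0.33. The widest such difference, 0.69, was at a site nearest Enpp7, and the others were nearest Wee1 (0.62) and at Ndufaf4 (0.60) and Fem1a (0.57). None of these 5 passed the test, with adjusted p from 0.124 to 0.290 (limma).

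**Figure D4:**
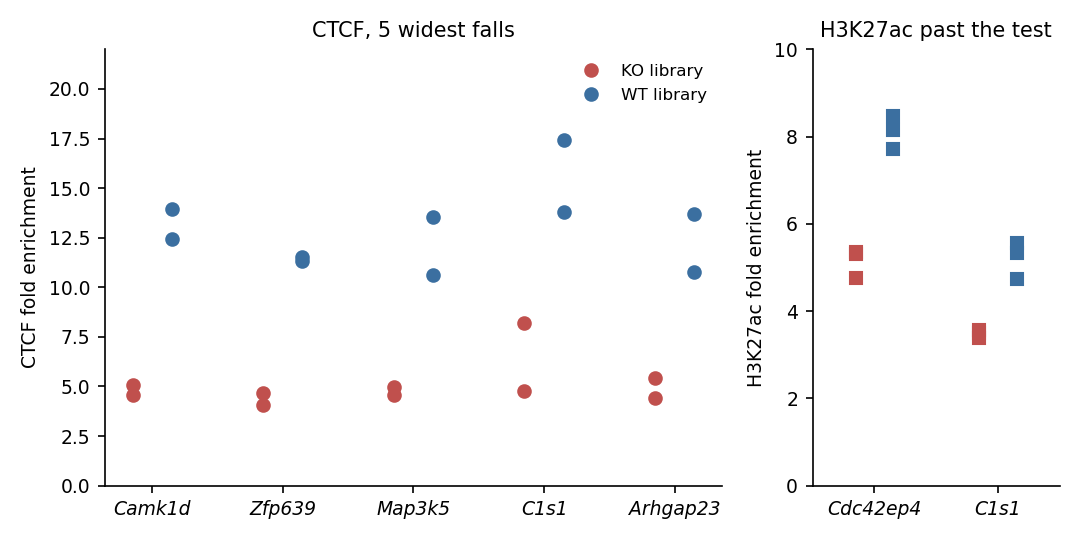
Left, CTCF fold enrichment (vertical axis) in each KO (red) and WT (blue) library at the 5 promoter sites with the widest falls, chosen so that KO and WT do not overlap. Right, H3K27ac fold enrichment in each KO and WT library at the 2 sites past the H3K27ac test, with KO values of 3.38 to 5.35 and WT values of 4.73 to 8.47.

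H3K27ac passed the test for a difference between KO and WT at 2 promoter sites. An H3K27ac peak overlapped 86.4%, 88.4% and 95.6% of the 2123 sites in KO 2, KO 3 and KO 4, and 88.8%, 92.1% and 86.1% in WT 1, WT 2 and WT 4. The mean was 90.1 ± 4.85% in KO and 89.0 ± 3.02% in WT (SD, n = 3 each; two-sided exact permutation p = 0.8, with 0.1 the smallest possible). KO 4, the highest, also had the largest list, whose peaks covered 126 Mb, whereas those of the remaining 5 libraries covered 78.2 to 91.5 Mb. All 6 libraries had a peak at 1686 sites and none had at 69. In the limma fit of the 2920 CTCF sites with H3K27ac in all 6, the median log2 difference was -0.06 at the promoter sites and -0.07 over all. All 3 KO values lay below all 3 WT values at 240 promoter sites (14.2%, background 16.2%) and above them at 49 (2.91%, background 3.42%). 2 promoter sites fell (background 0.103%) and none rose (background 0.0342%). An unadjusted p under 0.05 was reached at 197 of the 1686 promoter sites and at 438 of all 2920, so that the share was no higher at the promoter sites.

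The 2 sites lay at Cdc42ep4 and C1s1. Cdc42ep4, which encodes an effector of the Cdc42 GTPase, had H3K27ac folds of 5.35, 4.75 and 5.30 in KO 2, KO 3 and KO 4, against 7.72, 8.15 and 8.47 in WT 1, WT 2 and WT 4. Its log2 difference was -0.66 ± 0.09 (SE) with an adjusted p of 0.0077, and its CTCF peak, 5.92 and 5.66 in WT, was absent from both KO lists (chromosome 11, 113750626 to 113750987). C1s1 had H3K27ac folds of 3.57, 3.38 and 3.49 in KO, against 4.73, 5.33 and 5.55 in WT (-0.58 ± 0.10, adjusted p = 0.0296; chromosome 6, 124542293 to 124542982). The same site had a WT H3K4me3 fold of 6.94, was not in the KO H3K4me3 list, and was among the 32 CTCF falls. The next 3 falls without overlap, at Nxpe4, Zfp948 and Tbx3, and the 5 widest rises, at or near Sh2b3, Zfp788, Hyal5, Ankrd52 and Tmem62, did not pass (adjusted p from 0.056 to 0.237). Zfp788 had lower CTCF in KO (4.46 and 4.39, against 8.62 and 13.2 in WT, adjusted p = 0.0155) beside H3K27ac of 5.51, 6.04 and 5.40 in KO and 4.65, 4.29 and 4.23 in WT. The count was 0 without WT 4, and 1 without KO 3, KO 4 or WT 2 and with each library centred on its median.

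The other marks were also counted by what CTCF did. At the 208 sites called in neither KO, the median log2 H3K27ac difference was -0.07 over the 167 tested, with a middle 80% from -0.24 to 0.09, and at the 1637 called in both KO it was -0.05 over 1295, from -0.23 to 0.11. At the 32 sites where CTCF fell it was -0.08 over 28. An H3K4me3 peak was present in KO at 88.0% of the lost sites, at 86.7% of those with a call in 1 KO and at 88.6% of those with both. Where both libraries had an H3K4me3 peak, the median log2 H3K4me3 ratio of KO over WT was -0.14 in each of these classes and -0.31 at the 32 sites where CTCF fell, from 1 library against 1. The difference between these classes was not tested.

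**Figure D5:**
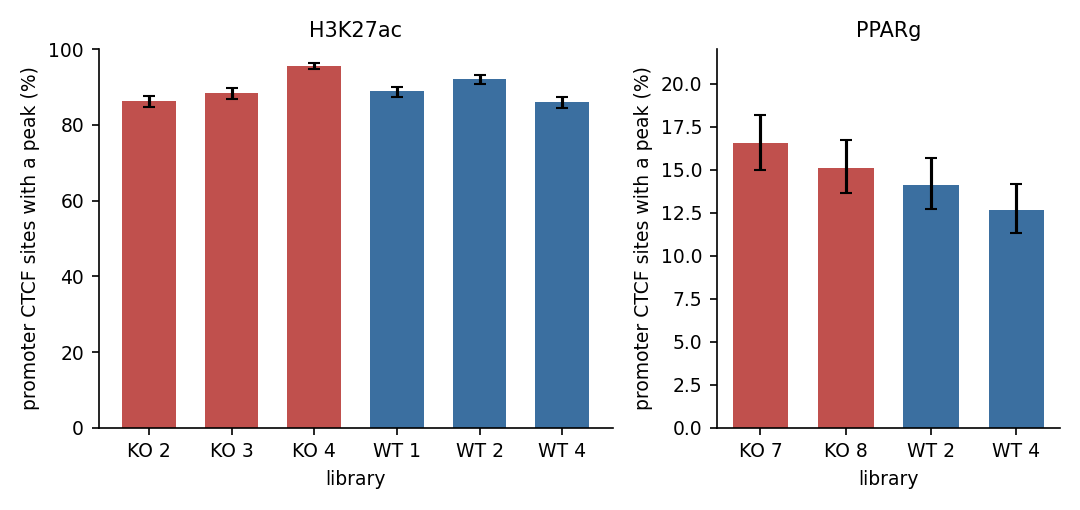
Share of the 2123 promoter CTCF sites with an H3K27ac peak (left) and a PPARg peak (right) in each KO (red) and WT (blue) library (vertical axes, %), with 95% Wilson intervals over sites. H3K27ac shares of KO and WT overlap, while both PPARg shares in KO lie above those in WT.

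H3K4me3 itself was the mark that chose the sites in WT, so only its level in KO is described, in 1 library against 1 and without a replicate check. The KO list had a peak at 1874 of the 2123 sites (88.3%). The 249 without one had narrower WT H3K4me3 regions (median 631 bp against 1511 bp) and lower WT folds (6.13 against 11.01). Where both libraries had a peak, the median fold was 9.90 in KO and 11.01 in WT, and the median log2 ratio was -0.14. The fold was over 2-fold higher in KO at 7 sites (0.373%) and over 2-fold lower at 39 (2.08%). These shares take only the H3K4me3 peaks that touch a site. Over whole H3K4me3 regions called in both libraries, the shares were 0.758% higher and 1.16% lower of the 1978 that held a site. They were 2.09% and 1.55% of all 13513. H3K4me3 regions that held a site were wider than those without any CTCF region (median 1434.5 and 1128.5 bp) and were called in KO in 92.9% of 2130 and 80.6% of 13618 cases. Of these 2130 regions, 2075 held 1 site and 55 held 2.

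The width of the H3K4me3 region sorted the sites. The 238 sites in regions under 500 bp had a listed start within 1 kb in 34.1% of cases and an H3K4me3 peak in KO in 57.6%. The 923 sites in regions of 1000 to 2000 bp had 75.9% and 94.7%, and the 623 in regions over 2000 bp had 67.7% and 92.3%. CTCF itself was weaker in wide regions, with medians of 9.51 in WT164 and 8.99 in WT165 in regions over 2000 bp and 12.4 and 10.6 in those under 500 bp. The share called in neither KO was 13.6% (11.2 to 16.6) in the widest and 7.14% (4.51 to 11.1) in the narrowest class.

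PPARg was called at a minority of promoter sites, and of the 144 sites with a peak in every library 37 (25.7%) rose in KO past the test, against a background of 30.5% over all CTCF sites tested. After centring 13 rose and 19 fell. A PPARg peak overlapped 16.5% and 15.1% of the sites in KO 7 and KO 8 and 14.1% and 12.7% in WT 2 and WT 4, with means of 15.8 ± 1.0% and 13.4 ± 1.03% (SD, n = 2 each; exact permutation p = 0.333, the smallest possible). No library had a peak at 1592 sites, all 4 had one at 144, both KO and neither WT at 58, and both WT and neither KO at 28. The KO lists are longer, with 27431 and 26345 peaks against 15514 and 16612. With lists cut to 15514 peaks the order turned, with 10.3% in KO and 13.0% in WT. With a −log10 q of at least 10 in every list the shares were 7.84% in KO and 4.12% in WT.

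At the 144 sites with PPARg in all 4 libraries the median log2 difference of fold was 0.55, against 0.60 over all 459 CTCF sites tested with limma. Of the 144, 3 fell (background 1.53%). Both KO values exceeded both WT values at 89 (61.8%, background 64.7%), and lay below them at 14 (9.72%, background 8.06%). Without KO 7, KO 8, WT 2 and WT 4 in turn 9, 11, 52 and 30 rose and 0, 2, 3 and 6 fell. WT 4 is the library made with the other kit and the one not given as from fasted males. Its list also reaches a lower limit, with a smallest −log10 q of 1.307, against 3.003 to 3.01 in WT 2, KO 7 and KO 8. Peaks were thus not called alike in the PPARg lists. The part of the kit, the mice and the limit in these values was not tested.

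The 5 sites with the highest PPARg fold averaged over KO 7 and KO 8 lay at genes of varied function. They were chosen for high KO values, so their differences from WT describe these sites and are no independent result. Etfdh, which passes electrons from fatty acid oxidation to the respiratory chain, had 184 and 162 in KO 7 and KO 8, against 38.2 and 31.2 in WT 2 and WT 4 (2.32 ± 0.32, adjusted p = 0.00154). CTCF at this site was 4.87 and 5.03 in WT and absent from both KO lists. Wdr93, a gene of little-known function, had 175 and 192 in KO and 54.7 and 32.4 in WT at a site inside the gene (2.13 ± 0.35, adjusted p = 0.00295), where CTCF was 17.4 and 17.0 in KO and 12.8 and 14.5 in WT. Chkb, a choline kinase gene, had 135 and 102 in KO and no WT peak. Chd1l, a chromatin remodeler gene, had 56.6 and 59.0 in KO and 11.7 and 8.82 in WT (2.51 ± 0.34, adjusted p = 0.00147). Sco2, a cytochrome oxidase assembly gene, had 64.1 and 48.9 in KO and 33.5 and 19.4 in WT (1.14, adjusted p = 0.045). The Sco2 call was lost in limma with centring (0.51, adjusted p = 0.199). It was also lost when sites with a peak in any PPARg library were fitted, with uncalled values set to a fold of 1 (adjusted p = 0.149). Without KO 7 or KO 8, which leaves 1 KO library, the calls at Sco2, Etfdh and Wdr93 were all lost. Leaving out 1 library at a time, the difference was 0.74 to 1.53 at Sco2, 2.17 to 2.47 at Etfdh and 1.75 to 2.50 at Wdr93. The call at Chd1l held in each alternative. Acot2, a mitochondrial acyl-CoA thioesterase gene, and Lpin2, a phosphatidate phosphatase gene, also rose (2.58 and 2.54, adjusted p = 0.00219 and 0.0014). The 3 falls lay at 1600014C10Rik, inside Adnp, which encodes a partner of chromatin remodelers (5.51 and 6.18 in KO, 22.9 and 15.6 in WT), and inside Pdgfra, the receptor gene of stromal cells (5.01 and 7.30 in KO, 26.6 and 18.8 in WT). Acot2, Lpin2 and these 3 were named after their values were seen. The calls at Pdgfra and Adnp were lost without KO 7. At 1600014C10Rik the difference was -1.35 without KO 7 and -0.87 without KO 8. Its call was lost with uncalled values set to a fold of 1 (limma adjusted p = 0.093). The calls at Acot2 and Lpin2 held in each alternative.

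Polycomb marking was rare. H3K27me3 overlapped 9 promoter sites in KO150 (0.424%, 0.223 to 0.804) and 2 in WT156 (0.0942%, 0.0258 to 0.343), and other CTCF sites at 0.909% and 0.462%. The sites at Ccbe1, a lymphatic growth gene, and nearest Meis1, a homeobox gene, were in both lists. The 7 in KO alone were at or nearest Apba1, Fat4, Tpbgl, Ephb3, Prss56, Sp6 and Eml1. Fat4 encodes an atypical cadherin and Ephb3 an ephrin receptor. No replicate stands behind these calls, and no site had H3K27me3 over 50% of its length.

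Gene lists were set beside the share over all genes. Genes were read within 1 kb of a listed start, or of either gene end where no start was listed. Of 11271 protein-coding genes with a WT H3K4me3 peak there, 1680 (14.9%) also had a promoter CTCF site there. In the list of CTCF, cohesin and partner genes it was 9 of 18 (50%): Ctcf, Smc3, Stag1, Pds5a, Pds5b, Esco1, Patz1, Adnp and Chd8. At the Ctcf promoter CTCF was 7.14 and 5.54 in KO and 8.66 and 13.4 in WT (chromosome 8, 105636511 to 105637422; -0.78 ± 0.33, adjusted p = 0.155). At Smc3, a cohesin core subunit gene, it was 9.68 and 11.1 in KO and 10.3 and 10.0 in WT. At Stag1, another cohesin subunit gene, it was 13.1 and 7.78 in KO and 11.8 and 11.7 in WT. The 9 best sites were called in all 4 libraries, and 0 of 9 passed the test in CTCF (background 2.06% lower and 0% higher). Pds5a also had another site, which neither KO called.

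Of 76 cytosolic ribosomal protein genes with H3K4me3, 24 (31.6%) had a site, 18 of them in all 4 libraries, and of 85 respiratory chain genes 20 (23.5%), 18 in all 4. Rps29 was the strongest, with 30.6 and 24.4 in KO and 29.8 and 42.4 in WT, and Rplp0 had 13.8 and 18.2 in KO and 21.5 and 24.5 in WT. Rpl32, Rpl34, Rps15 and the cytochrome oxidase gene Cox5a had a site that neither KO called. Atp5g2, an ATP synthase gene, had 14.3 and 21.6 in KO and 26.5 and 18.4 in WT. In both lists 0 of 18 tested sites passed the test in CTCF (background 2.06% lower and 0% higher), with medians of -0.22 and -0.14 (all regions -0.32). In H3K27ac 0 of 21 and 0 of 19 passed (background 0.103% lower and 0.0342% higher). With so few sites these counts cannot be read against those shares.

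The liver lists were small. Of 20 hepatocyte factor genes, 5 (25%) had a site (Foxa1, Foxa3, Cebpa, Cebpb and Gata6). Cebpa, a regulator of hepatocyte metabolism, had 10.2 and 8.31 in KO and 12.4 and 13.4 in WT (-0.49, adjusted p = 0.348), and Cebpb had 8.32 and 9.64 in KO and 11.7 and 8.27 in WT. Of 20 secreted protein genes 1 (5%) did, Apob, the lipoprotein scaffold gene, with 14.2 and 12.9 in KO and 19.2 and 12.7 in WT. PPARG targets and lipid droplet genes had 2 of 17 (Cideb and G0s2). At G0s2, an inhibitor of triglyceride lipase, PPARg was 6.50 and 60.1 in KO and 42.5 and 4.25 in WT, so that libraries of a genotype differed more than the genotypes. The circadian clock had 3 of 19 (Bhlhe40, Cry1 and Ciart), immediate early and stress genes 3 of 20 (Egr1, Jun and Gadd45a), and the cell cycle 4 of 21 (Trp53, Mcm5, Cdk6 and Ccna2). Imprinted loci had 2 of 11, Hox clusters 1 of 5 (Hoxa5) and clustered protocadherins 0 of 1. In these lists, with at most 5 tested sites each for either mark, 0 sites passed for CTCF (background 2.06% lower) or H3K27ac (background 0.103% lower), counts too small to be read against those shares. For PPARg, each list given here had at most 1 best site tested. Stag1 rose (background 30.5% higher) and no member's best site fell (background 1.53% lower), counts too small to be read against those shares. Another site, inside Adnp of the same list as Stag1, was among the PPARg falls named above.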

How the data were processed

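Peak lists of 18 liver libraries were used, made by the authors on build mm10, with MACS2 2.1.2, deepTools 3.1.3, Picard 1.77 and BWA 0.7.12 named in the submitters' processing notes. The control used in calling is not given in the sources used here. Each deposited peak has a fold enrichment over background (a ratio), a deposited −log10 p and −log10 q value, and a deposited score that was not used. Read depth is unknown, and numbers of peaks stand in for it. A site takes the highest fold among its peaks in a library. Sites were formed as the opening states, with H3K4me3 intervals listed once per summit collapsed. Differences in log2 fold between KO and WT came from limma 3.58.1, run in R 4.3.3 (trended prior, no covariates, Benjamini-Hochberg adjusted p under 0.05, two-sided). The fits covered all CTCF sites called in both WT with a peak in every library of the target. In simulated data, a log2 change of 1 was recovered at 25% of changed regions for CTCF, 26.4% for PPARg and 100% for H3K27ac. A log2 change of 2 was recovered at 100% for each. Unchanged regions called in a run numbered 1 to 13. The simulation gave all regions of a target the same independent noise and no shift common to all regions, so it is only a rough guide to these lists. For CTCF and PPARg, changes of the smaller size can thus go uncalled. No scaling between libraries was applied. Wilson intervals (95%) cover counting error over sites only. The labels do not say that libraries came from separate animals, so p-values measure the spread between these libraries, which may be technical. Sites and gene lists were chosen with earlier results of these data known, and sites were named by a fixed rule. It took the 8 with the best WT rank overall and among lost sites, and the 5 widest non-overlapping changes of each mark. It also took the 5 highest PPARg folds averaged over the KO libraries, shared H3K27me3 sites, and up to 4 per gene list. Genes and starts are RefSeq (GRCm38.p6), and the motif was searched in promoter windows in place of windows around peak centres, as no genome was given. Starts on chromosome 18 were not used here. Analyses used Python 3.11.15, pandas 2.3.3, numpy 2.4.6 and scipy 1.17.1. Alternatives were stricter q limits, equal list lengths, wider overlap, other fold summaries, centring, other pseudocounts and leaving out each library. Counts for one metabolic gene list are not reported here.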

Additional observations from a re-analysis of the deposited data

How the results depend on the processing

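The share of promoter sites called in neither KO was 9.80%. It was 13.1% at a −log10 q of at least 10, 2.54% with lists of equal length, 12.2% when a KO peak had to overlap the WT peaks by 200 bp, and 14.6 to 20.1% without 1 CTCF library. H3K4me3 taken from KO 4 or from both lists, or H3K4me3 regions of at least 500 bp (chosen after seeing the data), gave 9.70 to 10.1%. The 32 CTCF falls became 0 at a −log10 q of at least 10, 0 with centring, 231 with uncalled KO values set to a fold of 1, and 0 to 21 without 1 library, and no alternative gave a rise. The 231 cannot be read as a test of CTCF falls. Sites had to have a peak in both WT lists, and a fold of 1 lies below every deposited CTCF fold (smallest 2.989, in WT164). KO values set to 1 were thus lower than both WT values by construction. The 2 H3K27ac falls became 1 with centring, 0 by the percentage of 10 kb covered by peaks, and 0 to 3 without 1 library. They became 0 when sites with a peak in any H3K27ac library were fitted with uncalled values set to a fold of 1. By the percentage of 10 kb covered, the difference turned positive at Cdc42ep4 (0.0633 percentage points) and C1s1 (3.83 points), neither past the test. For PPARg, the 37 rises and 3 falls became 13 and 19 with centring and 73 and 30 with no filter, and 9 to 52 and 0 to 6 without 1 library. The PPARg call difference of 2.43 percentage points turned to -2.61 with lists of equal length. It was 3.72 at a −log10 q of at least 10 and 1.70 to 3.16 without 1 library. The H3K4me3 median log2 ratio of -0.14 was -0.0263 after division by the median ratio of all regions. H3K27me3 sites, 9 in KO and 2 in WT, became 5 and 1 at a −log10 q of at least 2, and 0 and 0 when 50% of the region had to be covered. The motif share of 48.9% was 34.8% within 100 bp around the centre and 32.5% for the narrower motif. The gap at equal strength was -2.53 points by mean log2 fold. Where these values changed, the cause was not tested.

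Only H3K27ac shares numbers between genotypes (2 and 4), and the labels do not say that they pair animals. Deviations from the group means correlated at 0.07 for number 2 and -0.11 for number 4 over 2920 sites. With the replicate block, 0 of the 1686 promoter sites fell or rose. For the other targets no paired analysis was possible because the genotypes share no number.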
